A study of Homo sapiens with 8 samples.

Results

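The peaks described here are the m6A peaks that lay in the last annotated exon of a transcript with more than 1 exon. They were taken from the peak lists of HL60, a human promyelocytic leukemia cell line, and of HL60/ADR, its derivative that resists Adriamycin (doxorubicin). A peak was a member when its annotation named an exon whose rank equalled the number of exons in the transcript, and genes whose symbol starts with LINC were left out. The rule gave 3212 of 40550 peaks in HL60 (7.92%) and 3298 of 38834 peaks in HL60/ADR (8.49%). These were 24.5% of the 13130 peaks annotated to exons in HL60 and 25.8% of the 12796 in HL60/ADR. A further 240 and 318 last-exon peaks belonged to LINC genes and were not members.

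The study profiled poly(A) RNA of both lines by MeRIP-seq, in which an N6-methyladenosine antibody captures fragmented RNA (IP) and the same RNA before capture serves as reference (input). Each line had 2 IP and 2 input libraries, 8 in all, and the peaks of a line were called on its replicates together, so each peak had 1 value per line. HL60/ADR cells had been kept in 0.5 μg/ml Adriamycin and then in drug-free medium for a week, whereas HL60 was the drug-sensitive parental line without selection. HL60/ADR is 1 selected line, so resistance cannot be told apart from other differences between these 2 cultures. The labels name HL60 as the cell line of the HL60/ADR samples too, and the samples were told apart by their titles.

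N6-methyladenosine is set on nascent RNA by a methyltransferase complex with METTL3 and METTL14 as its core, removed by FTO and ALKBH5, and bound by reader proteins such as the YTHDF and IGF2BP families. In mature mRNA it is known to crowd near stop codons and in long last exons, and packaging of exon junctions is known to keep short internal exons low in the mark. The annotation used here gave the untranslated regions of coding transcripts precedence, so peaks in 3′ UTRs were listed apart. The members were thus the last exons of noncoding transcripts, the coding stretches of last exons, and the ends of short transcript models inside longer genes.

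Sequences could be shown for members that held a whole microRNA hairpin or a whole promoter window from RefSeq (GRCh38.p14). The GGAC core of the m6A motif was searched on the strand shown and is in capitals in hairpins and promoter windows, and the seed (bases 2 to 8) is in capitals in mature microRNAs. The following are shown because the peak over microRNA 223 covered exactly its annotated hairpin (chrX:66018870-66018979) in both lines, inside exon 2 of 2 of MIR223HG. MiR-223 is a microRNA of the granulocyte lineage, to which HL60 belongs.
MIR223 hairpin: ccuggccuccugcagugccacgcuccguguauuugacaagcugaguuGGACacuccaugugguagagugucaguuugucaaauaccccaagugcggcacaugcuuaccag
hsa-miR-223-5p: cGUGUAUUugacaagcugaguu
hsa-miR-223-3p: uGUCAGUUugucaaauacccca
The hairpin held GGAC once, just after the 5p arm, and 415 of 1519 hairpins in the table held it at least once (27.3%). The peak had a fold enrichment (IP over input) of 2.37 in HL60 and 3.84 in HL60/ADR, at a false discovery rate above 0.05 in both lines. The peak assigned to the host transcript MIR223HG began 3 bases further on and read 2.25 and 4.09. It ran past the hairpin, to base 66019141 in HL60 and 66019230 in HL60/ADR, so enrichment was not confined to the hairpin. Both records were higher in HL60/ADR, with 1 pooled value per line and hence no error.

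MIR671 lay in exon 5 of 5 of CHPF2, a gene of chondroitin synthesis (chr7:151238421-151238538), and is shown as the case in which the enrichment over the hairpin was lower in HL60/ADR.
MIR671 hairpin: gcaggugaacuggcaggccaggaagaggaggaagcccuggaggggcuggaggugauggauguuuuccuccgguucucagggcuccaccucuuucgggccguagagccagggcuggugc
hsa-miR-671-5p: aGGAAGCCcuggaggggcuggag
hsa-miR-671-3p: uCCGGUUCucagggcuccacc
The peak read 5.20 in HL60 and 3.59 in HL60/ADR, and its hairpin held no GGAC. A larger peak around it that was annotated to the 3′ UTR read 4.97 and 6.40, so the direction differed between the 2 records of the locus. CHPF2 itself was at 24.6 and 25.3 FPKM (fragments scaled to transcript length and library size) in the HL60 libraries and at 6.62 and 6.95 in the HL60/ADR libraries (log2 fold change -1.74, SE 0.04, limma adjusted p 1.57e-05).

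Members that reached over a promoter window of a neighbouring gene are shown by 2 windows, each given on the strand of the gene to which the peak was assigned.
CTBP1 window: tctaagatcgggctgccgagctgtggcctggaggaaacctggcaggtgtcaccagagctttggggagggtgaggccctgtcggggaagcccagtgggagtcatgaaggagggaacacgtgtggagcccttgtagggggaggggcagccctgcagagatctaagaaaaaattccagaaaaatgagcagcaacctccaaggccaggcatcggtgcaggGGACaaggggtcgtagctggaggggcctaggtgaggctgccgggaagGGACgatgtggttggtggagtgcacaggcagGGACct
PSMD6-AS1 window: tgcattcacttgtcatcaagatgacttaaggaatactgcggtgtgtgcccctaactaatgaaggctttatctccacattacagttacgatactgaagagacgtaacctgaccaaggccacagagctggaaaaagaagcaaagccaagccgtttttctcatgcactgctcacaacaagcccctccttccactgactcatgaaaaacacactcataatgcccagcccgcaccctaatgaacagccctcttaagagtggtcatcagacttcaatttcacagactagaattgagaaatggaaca
The CTBP1 window (chr4:1250306-1250605) lay in the last exon of the divergent transcript CTBP1-DT, whose peak read 7.11 in HL60 and held GGAC at 3 places in this window. The PSMD6-AS1 window (chr3:64011714-64012013) lay in a peak of 8.65 in HL60/ADR, annotated to exon 3 of 3 of PSMD6-AS2, and held no GGAC. Of 35116 promoter windows of 300 bases, 66.3% held GGAC on the gene's strand and 66.1% on the other strand, so a match in a window of this length was common.

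The last exons were of mixed kinds. The gene of the annotated exon was protein-coding for 1325 members in HL60 (41.3%, Wilson interval 39.6 to 43.0) and 1298 in HL60/ADR (39.4%, 37.7 to 41.0). It was a long noncoding gene for 942 (29.3%) and 1019 (30.9%), and a pseudogene or other kind for 313 and 277. The exon gene of the remaining 632 and 704 peaks could not be matched to a kind. Intervals here and below cover counting error only.

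Short transcript models were frequent. The last exon was exon 2 of 2 for 1221 members of HL60 and 1230 of HL60/ADR, and 172 and 166 members lay in transcripts of more than 10 exons. Most members were 1 unspliced block (87.9% and 87.2%). The median exonic length was 299 bases in HL60 and 300 bases in HL60/ADR, against 360 bases over all peaks of either line.

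The gene named by the exon was often not the gene to which the peak had been assigned. In HL60 899 members (28.0%) and in HL60/ADR 969 members (29.4%) lay in an exon of another gene than the assigned one. Antisense genes, whose symbols end in -AS with or without a digit, gave the exon of 514 and 512 members, and 255 and 278 of these peaks were assigned to a different gene. Where both genes had expression values, the assigned gene had a median of 1.50 FPKM in HL60 (680 peaks) and the exon gene 0.400 FPKM. In HL60/ADR the medians were 1.51 and 0.343 FPKM (744 peaks).

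The actin filament gene AFAP1 and its antisense neighbour AFAP1-AS1 showed how far the 2 names can part. The files assigned 10 last-exon peaks in HL60 and 4 in HL60/ADR to AFAP1, all of them in exon 2 of 2 of AFAP1-AS1. AFAP1 was at 0.0114 and 0.0130 FPKM in the HL60 libraries and at 0.0303 and 0.00521 in the HL60/ADR libraries. AFAP1-AS1 was at 0.866 and 0.972 FPKM in HL60 and at 16.9 and 17.6 in HL60/ADR, and the log2 fold change was 3.25 (SE 0.05, limma adjusted p 1.04e-05). The 10 peaks of HL60 read 1.73 to 4.86 over 61 to 841 exonic bases. The 4 peaks of HL60/ADR read 2.48 to 11.5 over 151 to 3211 exonic bases.

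The fold enrichment of last-exon peaks was higher than that of internal exons and UTRs in each line. HL60 members had a median of 4.67 and quartiles of 2.80 and 7.73. HL60/ADR members had a median of 6.21 and quartiles of 3.37 and 9.48. Internal exons had medians of 3.11 and 4.43, first exons 4.97 and 6.21, and single-exon transcripts 6.07 and 7.09. Peaks in 5′ UTRs had medians of 4.02 and 5.32 and peaks in 3′ UTRs 3.53 and 4.98, beside 3.86 and 5.32 over all peaks. Among members, last exons of long noncoding genes had higher medians (5.52 and 7.09) than last exons of protein-coding genes (3.78 and 4.72). Peaks are not replicates and each line had 1 pooled list, so these are descriptions with no test.

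**Figure D1:**
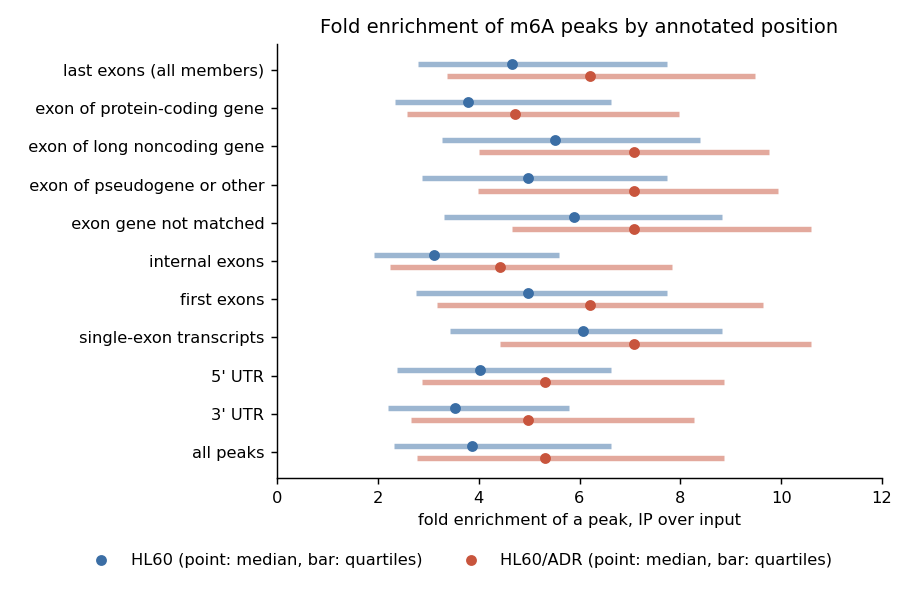
Fold enrichment of m6A peaks (x axis, IP over input, linear) by annotated position (y axis) in HL60 and HL60/ADR, with a point for the median and a bar from the lower to the upper quartile. The 4 rows under the members split them by the kind of the exon gene, and the medians of all members, 4.67 and 6.21, lie to the right of those of internal exons, 3.11 and 4.43.

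Last-exon peaks lay in more weakly expressed genes than peaks at large, as did peaks of first exons and single-exon transcripts. The median of the assigned gene in HL60 and HL60/ADR was 1.14 and 1.11 FPKM for members. It was 1.19 and 1.23 FPKM for first exons, 0.501 and 0.621 for single-exon transcripts and 3.56 and 2.83 over all peaks. The assigned gene was under 1 FPKM for 47.6% of members with a value in HL60 and 48.4% in HL60/ADR, against 29.7% and 31.2% over all peaks. Many values were whole multiples of a step, which was 1.10 for HL60 and 0.887 for HL60/ADR, and 28.1% and 40.9% of members sat on 6 to 40 such steps, against 18.3% and 26.3% of all peaks. The fitted step was approximate, so values beside a step, such as 9.93 in HL60, were not counted and these shares can be too low. Leaving out the values counted on steps removes only values of 6 steps or more, so lower medians come largely from the cut itself. Other classes were not cut in this way. The medians of the members after this cut were 3.49 and 3.84. With assigned genes of 1 FPKM or more they were 3.59 and 4.41. A false discovery rate under 0.05 held for 67.4% and 73.8% of members, against 80.1% and 84.1% of all peaks.

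The position within the exon could be measured where the annotated transcript was the listed one, which held for 1361 and 1321 members of the respective lines. The 3′ edge of the peak lay a median of 653 bases before the transcript end in HL60 and 509 bases before it in HL60/ADR. It reached or passed the end in 24.1% (21.9 to 26.4) and 24.4% (22.1 to 26.8). It lay 1 to 100 bases before the end in 4.92% (3.89 to 6.2) and 8.63% (7.23 to 10.3). Counted together, the peaks that ended within 100 bases of the end or past it were 29.0% (26.7 to 31.5) and 33.0% (30.5 to 35.6), with overlapping intervals.

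**Figure D2:**
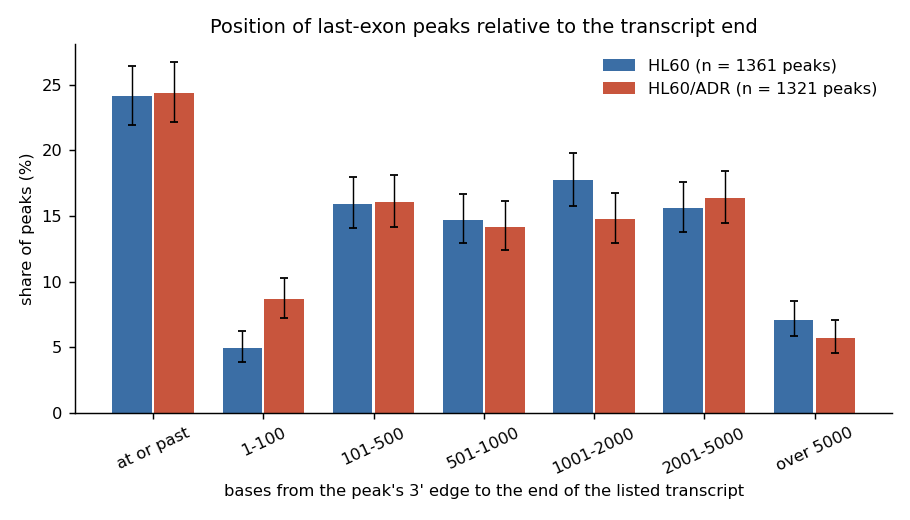
Share of last-exon peaks (y axis, percent, with Wilson intervals) by the distance in bases from the 3′ edge of the peak to the end of the listed transcript (x axis, bins of unequal width), for 1361 peaks of HL60 and 1321 of HL60/ADR. The share at or past the end was 24.1% and 24.4%, and the share 1 to 100 bases before it was 4.92% and 8.63%.

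The strongest member of HL60 was a peak in exon 4 of 4 of RTCA-AS1, a long noncoding gene antisense to the RNA cyclase gene RTCA, at chr1:100253624-100261301 with a fold enrichment of 99.3. Its overlapping peak in HL60/ADR read 32.2. RTCA-AS1 was at 1.35 and 1.42 FPKM in HL60 and at 0.910 and 0.908 in HL60/ADR (log2 fold change -0.32, SE 0.06, limma adjusted p 0.00890), a difference that did not reach the size used to call a gene.

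NEAT1, the long noncoding RNA that builds nuclear paraspeckles, gave another strong member of HL60, at chr11:65423492-65425317 with a fold enrichment of 84.0 over 1826 bases. An overlapping record assigned to AP000944 read 87.0. In HL60/ADR the same stretch was covered by a longer peak that was annotated to the first exon and read 220, and the last-exon peaks of NEAT1 further on read 5.07. The HL60/ADR list also held last-exon records within this stretch, assigned to AP000944, at 4.10 and 4.62. NEAT1 was at 13.3 and 13.8 FPKM in HL60 and at 31.8 and 31.4 in HL60/ADR (log2 fold change 1.17, SE 0.03, limma adjusted p 2.10e-05).

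The listing also differed for RPGR, a regulator of ciliary transport that is mutated in inherited retinal disease, and the strongest member of HL60/ADR. Its peak at chrX:38285584-38286124, in exon 15 of 15, read 119. In HL60 a peak over this stretch was annotated to the 3′ UTR and read 73.9, and a neighbouring 3′ UTR peak of HL60/ADR read 302. RPGR was at 1.90 and 1.82 FPKM in HL60 and at 3.55 and 3.48 in HL60/ADR (log2 fold change 0.66, SE 0.05, limma adjusted p 0.000331).

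Other strong members of HL60 were assigned to genes at 1 FPKM or more. CTCF, the insulator protein of chromatin loops, had a peak of 26.5 in exon 2 of 2 of a short transcript, and XPO5, the exporter of microRNA precursors, had one of 24.3. Neither had an overlapping peak in HL60/ADR. CTCF was at 8.77 and 9.10 FPKM in HL60 and at 8.83 and 8.86 in HL60/ADR, whereas XPO5 fell from a mean of 19.6 to a mean of 6.28 FPKM (log2 fold change -1.50, SE 0.03, limma adjusted p 1.83e-05). Peaks of 29.8 in the divergent transcript EPM2A-DT, assigned to SHPRH, and of 27.6 in FMNL1-AS1, assigned to the formin gene FMNL1, were further cases in which the exon belonged to another gene. All 4 peaks lay on whole steps. The remaining peaks of the 10 strongest were assigned to CROCCP2, ACAP3, ASAP1 and NAPA, at 22.1 to 26.5. The ASAP1 peak lay in an exon of an unnamed gene and the NAPA peak in NAPA-AS1.

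In HL60/ADR JPX, a noncoding activator gene of the X-inactivation centre, had 2 records at 48.8 and 47.9 that covered nearly the same bases of exon 5 of 5. The corresponding stretch in HL60 read 3.86. JPX itself was at 1.33 and 1.38 FPKM in HL60 and at 1.62 and 1.41 in HL60/ADR, a difference that did not pass the test (limma adjusted p 0.285). PREX1, an activator of Rac GTPases, had a peak of 36.4 in an exon of an unnamed overlapping gene. ALKBH3, a demethylase of alkylated nucleic acids, had a peak of 33.7 in exon 6 of 6 and no last-exon peak in HL60. The remaining 10 strongest peaks were assigned to SNTB1, FPGT, GSE1, TCF20 and THADA, at 30.2 to 41.7. The GSE1 and THADA peaks lay in exons of unnamed genes and the TCF20 peak in an exon of OGFRP1.

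A few genes held many members. Of the 2116 genes with a last-exon peak in HL60, 1517 (71.7%) had exactly 1, and 59 had 5 or more. In HL60/ADR 1579 of 2207 (71.5%) had exactly 1 and 47 had 5 or more. Some records overlapped each other, and merging them left 3000 regions in HL60 and 3100 in HL60/ADR.

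JPX had 14 members in HL60 and 11 in HL60/ADR. The values ran from 1.87 to 9.22 in HL60 with a median of 2.78, and from 1.67 to 48.8 in HL60/ADR with a median of 7.98. In each line 2 of these peaks lay in an exon of FTX, another noncoding gene of the X-inactivation centre. GARS1-DT, the divergent transcript of the glycyl-tRNA synthetase gene, had 9 and 15 members. Its medians were 3.31 and 4.88, and the strongest peak of HL60/ADR, at 15.0, lay over a peak that read 6.27 in HL60. GARS1-DT was at 0.902 and 0.992 FPKM in HL60 and at 1.78 and 1.75 in HL60/ADR (log2 fold change 0.51, SE 0.06, limma adjusted p 0.00188).

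AHNAK2, a giant scaffold protein encoded almost wholly by its last exon, had 20 members in HL60 and 1 in HL60/ADR. The 20 peaks lay along exon 6 of 6 and read 1.87 to 21.0, and the only peak of HL60/ADR read 7.09 on a whole step. AHNAK2 was at 0.584 and 0.639 FPKM in HL60 and at 0.0417 and 0.0356 in HL60/ADR, below the filter of the expression test. Its relative AHNAK, at 35.8 and 35.0 FPKM in HL60 and 26.8 and 27.3 in HL60/ADR, had 7 and 10 members, of which 4 were pairs. Those pairs read 3.35, 1.99, 2.38 and 3.29 in HL60 and 4.42, 2.34, 2.09 and 2.79 in HL60/ADR, so no AHNAK pair moved 2-fold.

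MIR4435-2HG, a long noncoding host gene, had 11 and 9 members with medians of 3.53 and 7.98. Of its 4 pairs, the one in exon 5 of 5 at chr2:111246803-111247102 went from 2.12 to 15.5, and the one at chr2:111196442-111196892 went from 4.97 to 2.33. RNF213, an interferon-induced ubiquitin ligase, had 7 and 12 members. Of these 6 and 10 lay in the antisense gene RNF213-AS1, which was at 0.0678 and 0.101 FPKM in HL60 and at 0.167 and 0.137 in HL60/ADR, while RNF213 was at 6.22 and 6.44 and at 6.55 and 6.57 FPKM.

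A pair of genes outside these 5 held members in 1 line only, and they were chosen after their values were seen. GVINP1, a pseudogene of an interferon-inducible GTPase, had 15 members in HL60 with values from 3.04 to 14.3, and none in HL60/ADR. It was at 0.167 and 0.231 FPKM in HL60 and listed at 0 in both HL60/ADR libraries. AL117329, a long noncoding gene that RefSeq names EPIC1, had 14 members in HL60/ADR and none in HL60, with values from 2.28 to 16.2. AL117329 was listed at 0 in both HL60 libraries and was at 0.480 and 0.453 FPKM in HL60/ADR.

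**Figure D3:**
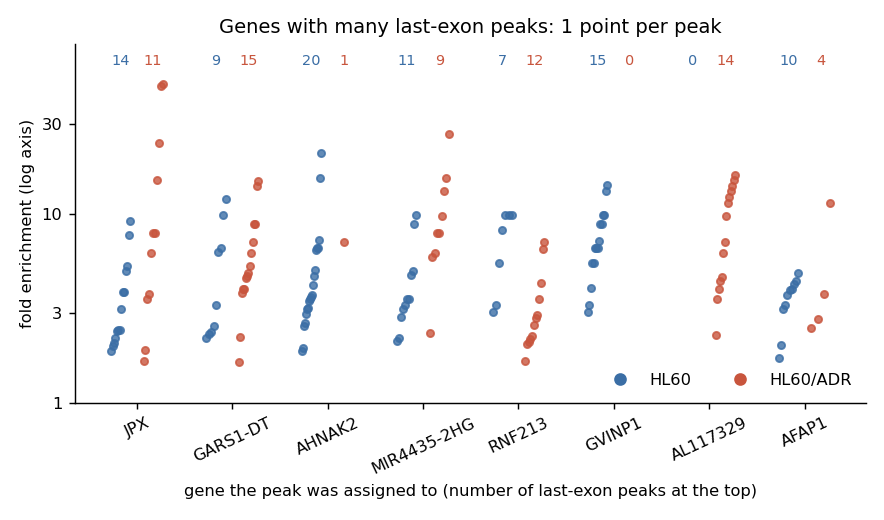
Fold enrichment (y axis, log axis) of each last-exon peak in the 5 genes with the most members and in GVINP1, AL117329 and AFAP1 (x axis, the gene to which the peak was assigned), with the number of peaks in HL60 and HL60/ADR written above. AHNAK2 went from 20 peaks to 1 and GVINP1 from 15 to 0, while AL117329 went from 0 to 14.

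The 2 lists were compared by position, counting peaks whose spans shared at least 1 base. In HL60 2169 members (67.5%, 65.9 to 69.1) overlapped a peak of any kind in HL60/ADR, against 72.6% of all HL60 peaks. In HL60/ADR 2005 members (60.8%, 59.1 to 62.4) overlapped a peak in HL60, against 74.4% of all HL60/ADR peaks. The partner was itself in a last exon for 1515 of the 2169 (69.8%) and 1478 of the 2005 (73.7%). For the others it was most often annotated to a 3′ UTR (222 and 202) or a 5′ UTR (205 and 172), followed by internal exons (160 and 97) and first exons (98 and 70). When 50% of both peaks had to be shared, the shares of members fell to 27.6% and 26.4%, against 43.5% and 45.5% of all peaks.

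Members with and without a partner were compared by the expression of the assigned gene in the other line. Expression of the exon gene, where it was another gene, was not used, and the part of expression was not tested. Of the members without a partner that had expression values, 42.5% in HL60 (416 of 979) and 45.8% in HL60/ADR (549 of 1199) were assigned to a gene at 1 FPKM or more in the other line. The shares were 55.6% and 56.7% for members with a partner. Members without a partner sat on whole steps in 38.8% and 46.6%, against 23.0% and 37.2% of those with one. Besides CTCF and XPO5, the strongest in HL60 among genes of 1 FPKM or more in both lines included DUXAP8 at 19.9, the ATP23 locus at 17.7 and UBR4, a ubiquitin ligase, at 14.3. In HL60/ADR they included THADA at 30.2, GRK3 at 22.2, SEC13 at 21.3 and PSIP1, a chromatin-tethering protein, at 19.2, by the assigned gene. The THADA peak lay in an exon of an unnamed gene, the GRK3 peak in YES1P1 and the SEC13 peak in GHRLOS. THADA was at 3.33 and 3.41 FPKM in HL60 and at 1.56 and 1.61 in HL60/ADR.

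A change of enrichment could be measured for 789 pairs in 680 genes, in which 1 member of each list overlapped only the other by the exon blocks. The HL60/ADR value was higher in 508 pairs (64.4%), and the median log2 ratio of HL60/ADR over HL60 was 0.39 (quartiles -0.27 and 0.97), a ratio of 1.31. Over all 16544 pairs of peaks the median log2 ratio was 0.35. More than 2-fold higher values were found in 193 last-exon pairs (24.5%, 21.6 to 27.6), where the background over all pairs was 19.0%. More than 2-fold lower values were found in 59 pairs (7.48%, 5.84 to 9.53), where the background was 4.81%. Both tails thus held larger shares in last exons than over all pairs, while the median was close to that of all pairs. With neither peak counted on a whole step, 448 pairs remained and the tails were 20.1% and 5.36%, beside 14.6% and 2.41% over all such pairs. With assigned genes of 1 FPKM or more in both lines, 396 pairs gave 20.5% and 7.58%, beside 16.4% and 3.33%.

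**Figure D4:**
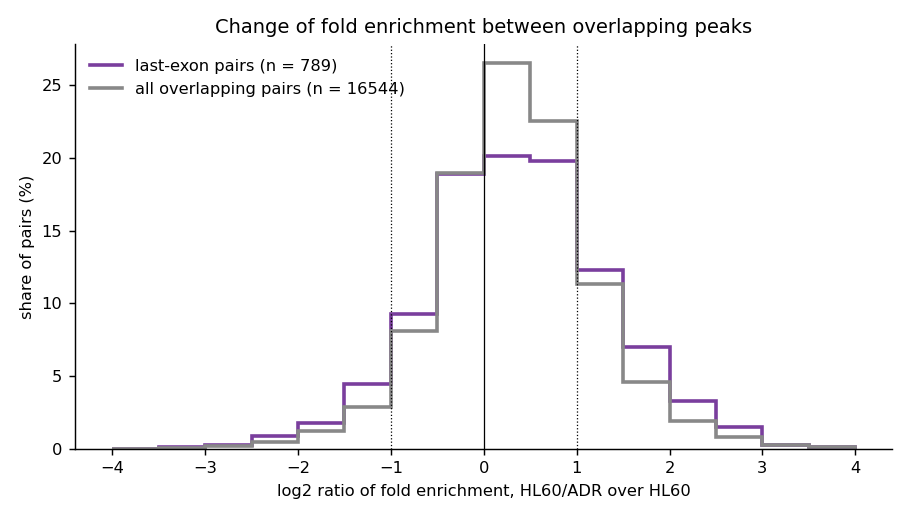
Share of overlapping peak pairs (y axis, percent) by the log2 ratio of fold enrichment, HL60/ADR over HL60 (x axis, bins of 0.5), for 789 last-exon pairs and all 16544 pairs. Dotted lines mark 2-fold in either direction, and 24.5% of last-exon pairs lay to the right of the upper line against 19.0% of all pairs.

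The medians of the kinds of exon gene lay within overlapping intervals, given in parentheses as binomial order-statistic intervals of the median over pairs. The median log2 ratio was 0.28 (0.19 to 0.43) in 314 pairs of protein-coding exon genes, 0.42 (0.27 to 0.51) in 253 pairs of long noncoding genes and 0.57 (0.29 to 0.79) in 74 pairs of pseudogenes and other kinds. It was 0.62 (0.28 to 0.93) in the 59 pairs whose assigned gene fell in expression, 0.17 (-0.46 to 0.67) in the 40 pairs whose gene rose, and 0.46 (0.36 to 0.52) in the 455 pairs whose gene was tested and not called. Over all pairs the same groups gave 0.54, 0.17 and 0.34. The intervals of the last-exon groups overlapped, and differences between them were not tested. The part of expression in these ratios was not tested.

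Among pairs assigned to genes of 1 FPKM or more, the ratios of HL60/ADR over HL60 were largest at EHD1 and PREX1. EHD1, which recycles endocytosed membrane, went from 2.33 to 26.6 in exon 2 of 2 of a short transcript (chr11:64855205-64855295 in HL60). The HL60 value had a false discovery rate above 0.05. EHD1 was at 15.4 and 15.1 FPKM in HL60 and at 8.82 and 9.19 in HL60/ADR (log2 fold change -0.70, SE 0.03, limma adjusted p 9.94e-05). PREX1 went from 3.45 to 36.4, at 19.8 and 20.4 FPKM in HL60 and 32.1 and 31.1 in HL60/ADR (log2 fold change 0.63, SE 0.03, limma adjusted p 9.49e-05). Neither gene reached the size used for an expression call.

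SRRM2, a scaffold of nuclear speckles and the most highly expressed gene of these 10 pairs, went from 5.63 to 24.8 in exon 8 of 8. SRRM2 was at 84.1 and 87.7 FPKM in HL60 and at 64.7 and 65.8 in HL60/ADR. PSMA3, a proteasome subunit, had a pair in the antisense gene PSMA3-AS1 that went from 2.29 to 11.1, and SP2, a transcription factor, one from 3.49 to 24.4 in SP2-AS1. SLC27A3 went from 2.80 to 17.7, RBM19 from 5.49 to 28.4, MBP from 3.94 to 18.6, DCPS from 2.68 to 11.5 and BX640514 from 2.58 to 10.6. The RBM19 and MBP pairs lay in exons of unnamed genes and the DCPS pair in an exon of GSEC. In 7 of these 10 pairs the HL60/ADR value lay on a whole step.

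The smallest ratio was found in NAPA-AS1, the antisense neighbour of the vesicle fusion gene NAPA, where the pair went from 22.1 to 2.45. USP48, a deubiquitinase, went from 17.7 to 2.28 at a level that did not pass the expression test (8.84 and 9.38 FPKM in HL60, 8.91 and 9.27 in HL60/ADR, limma adjusted p 0.960). CD38, the NAD-consuming surface enzyme of blood cells, went from 14.3 to 2.22 while its expression rose from 1.30 and 1.22 to 5.99 and 6.47 FPKM (log2 fold change 1.68, SE 0.06, limma adjusted p 3.80e-05). ARL2, a GTPase of tubulin folding, went from 9.93 to 1.93 and its expression rose from 12.7 and 13.3 to 29.7 and 29.4 FPKM. IRF1, the interferon regulatory factor, went from 22.1 to 4.88, IDI1 from 8.83 to 2.01 in IDI2-AS1, NIPAL3 from 9.93 to 2.27, P3H1 from 8.83 to 2.11 with 1 shared base, GALNT2 from 15.5 to 4.19 and HDAC4 from 8.83 to 2.80. By the fitted step, 7 of these 10 HL60 values lay on a whole step. The HL60 values of CD38, ARL2 and NIPAL3 lay beside a whole step and were not counted. The NIPAL3 and P3H1 values of both lines, and the HDAC4 value of HL60, had a false discovery rate above 0.05.

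Some last-exon peaks were strong in both lines. AP006621, a divergent transcript that RefSeq names GATD1-DT, read 35.3 and 45.2, and ACAP3, which acts on the ARF6 GTPase, read 25.4 and 21.3. TSGA10 read 23.2 and 25.7, OLMALINC 18.8 and 24.8, and FRG1-DT 17.7 and 24.8. The values of ACAP3, TSGA10, OLMALINC and FRG1-DT lay on whole steps in both lines. AP006621, TSGA10 and FRG1-DT were under 1 FPKM in every input library, and OLMALINC was at 0.333 and 0.348 FPKM in HL60. The neuropeptide precursor VGF had a peak of 28.7 and a smaller one of 9.93 in HL60, and a single peak of 48.8 over both stretches in HL60/ADR. VGF was at 0.261 and 0.178 FPKM in HL60 and at 0.356 and 0.325 in HL60/ADR.

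Expression in the input libraries was compared for the genes that carried members. Of 3174 such genes in either line 2978 had FPKM values and 1868 passed the filter of 0.5 FPKM on the mean of the 4 libraries. In HL60/ADR 172 of them were called higher (9.21%), where the background over all 13053 tested genes was 8.93%, and 232 were called lower (12.4%), where the background was 13.8%. Neither share stood far from its background. The median log2 fold change was -0.14 among these genes and -0.18 among all tested genes. With each library centred on its median, 245 of the member genes were called higher and 146 lower, beside backgrounds of 12.7% and 8.96%, so the excess of lower calls depended on the scaling. Fewer cells with an RNA and less RNA per cell cannot be told apart in these bulk libraries.

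Genes called in either direction carried members in either line. Of the 172 genes called higher, 55 had last-exon peaks in HL60 alone, 55 in HL60/ADR alone and 62 in both. Of the 232 called lower, 74 had them in HL60 alone, 79 in HL60/ADR alone and 79 in both. For peaks of any kind the genes called higher had peaks in HL60 alone in 5.01% and in HL60/ADR alone in 15.1%, and the genes called lower in 10.8% and 2.68%.

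Among the member genes with the largest rises in expression was OVAAL, a long noncoding RNA named for its amplification in ovarian adenocarcinoma, at 0.0443 and 0.0425 FPKM in HL60 and 57.9 and 59.0 in HL60/ADR (log2 fold change 5.83, SE 0.03, limma adjusted p 6.07e-06). It carried 1 last-exon peak in each line. RASSF4, a Ras association domain protein, rose from 2.48 and 2.60 to 29.9 and 30.3 FPKM, and its last-exon peak was in HL60 alone. MIR210HG, the host of a hypoxia-induced microRNA, rose from 0.283 and 0.432 to 8.36 and 8.82 FPKM, and had 3 last-exon peaks in HL60 and none in HL60/ADR. The homeobox gene HOXC10 rose from 1.87 and 1.98 to 16.4 and 17.5 FPKM, and the collagen gene COL23A1 from 7.64 and 6.98 to 49.3 and 47.8 FPKM. TRGV9, a T cell receptor gamma segment, rose from 0.655 and 0.729 to 9.32 and 9.85 FPKM. AL590550, AL359555, AL390719 and AC005256 completed the 10. Of these 10 genes 5 carried their last-exon peaks in HL60 alone and 4 in HL60/ADR alone.

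The largest falls were found in FAM111A, a protease that restricts viral replication, from 17.0 and 17.7 to 0.134 and 0.0309 FPKM (log2 fold change -4.08, SE 0.07, limma adjusted p 1.07e-05). It carried 2 last-exon peaks, both in HL60/ADR. CNR2, the cannabinoid receptor of immune cells, fell from 12.1 and 12.5 to 0.0916 and 0.0350 FPKM, and RHEX, a regulator of erythroid proliferation, from 102 and 97.9 to 11.4 and 10.2 FPKM. The glycosyltransferase genes CHPF, MGAT3 and B3GNT7, the GPI anchor gene PIGW and the genes IL10RA, BCL9 and CORO7-PAM16 completed the 10. CORO7-PAM16 is a readthrough gene that shares its reads with CORO7 and PAM16, so its value is uncertain. Of these 10 falling genes 8 carried their last-exon peaks in HL60/ADR alone. Over all 232 genes called lower the share was 34.1%, and over genes tested and not called 29.0%.

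**Figure D5:**
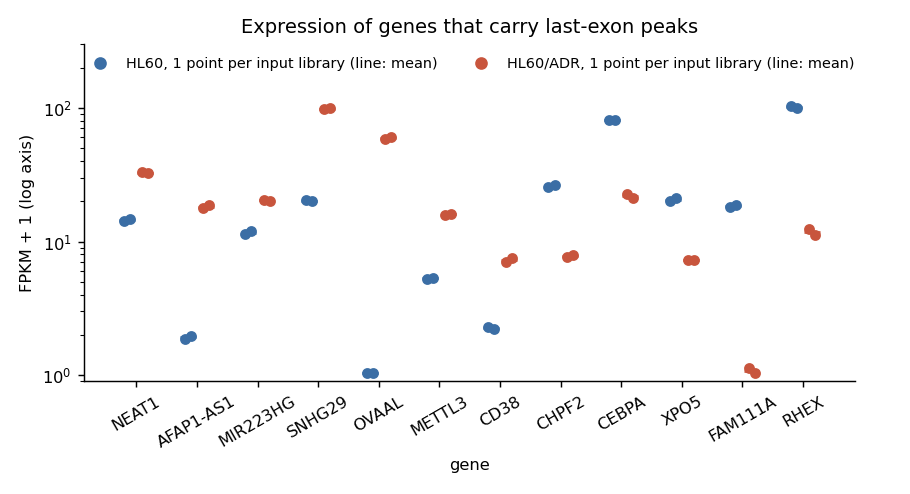
FPKM plus 1 (y axis, log axis) in each of the 2 input libraries per line for 12 genes that carry last-exon peaks or name their exon (x axis). The libraries of a line lie close together for each of these genes, and AFAP1-AS1 is at 0.866 and 0.972 FPKM in HL60 and 16.9 and 17.6 in HL60/ADR.

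Of 11 writers and erasers, all of which had a peak of some kind, 2 had one in a last exon (18.2%), close to the 17.4% of all 18283 genes with a peak (3174). METTL3, the catalytic methyltransferase, had a last-exon peak of 2.66 in HL60/ADR alone, at a false discovery rate above 0.05. METTL3 was at 4.23 and 4.36 FPKM in HL60 and at 14.8 and 15.1 in HL60/ADR (log2 fold change 1.59, SE 0.03, limma adjusted p 1.64e-05). The demethylase ALKBH5 had one of 1.18 in HL60 alone, also at a false discovery rate above 0.05. Its stretch was covered by a 3′ UTR peak of 1.60 in HL60/ADR. Among all 11 genes 1 rose (9.09%) and 1 fell (9.09%), beside 8.93% and 13.8% of all tested genes. The median log2 fold change was -0.44, beside -0.18 over all tested genes.

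Of 12 reader genes only IGF2BP3, an RNA-stabilizing reader, carried a member, of 14.7 in HL60. In HL60/ADR the stretch was covered by a peak of 36.4 that was annotated to an internal exon. Of 10 exon junction genes EIF4A3, the core helicase of that complex, had a peak of 7.73 in HL60. Of 10 genes of nonsense-mediated decay SMG1, the kinase of that pathway, had 2 in HL60 (6.62 and 5.15), and UPF3B had 1 in each line (4.05 and 6.21) in an exon of an unnamed gene. The EIF4A3 peak, the SMG1 peak of 6.62 and the UPF3B peak of 6.21 lay on whole steps, at a false discovery rate above 0.05. Of 20 cleavage and polyadenylation genes NUDT21, which steers the choice of poly(A) sites, had a pair that went from 4.41 to 1.77, and the scaffold SYMPK one that went from 2.70 to 2.16. In the decay list 2 of 10 tested genes fell and none rose, and in the cleavage list 5 of 20 fell and 1 rose, beside 13.8% and 8.93% over all tested genes.

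Of 38 myeloid leukemia genes 7 had members assigned to them. PML, the fusion partner of RARA in promyelocytic leukemia, had a second peak of 1.71 in HL60/ADR and a pair in exon 9 of 9 that read 2.64 in HL60 and 4.08 in HL60/ADR. TET2, RUNX1 and CDKN2A had members in HL60 alone, at 3.06, 4.41 and 1.69, and ASXL1, KMT2A and CEBPA in HL60/ADR alone, at 1.17, 7.09 and 1.5. The KMT2A peak lay in exon 3 of 3 of TTC36-AS1, on a whole step and at a false discovery rate above 0.05. The CEBPA peak lay in an exon of an unnamed gene. CEBPA, the granulocyte transcription factor, fell from 79.8 and 80.4 to 21.7 and 20.3 FPKM (log2 fold change -1.88, SE 0.04, limma adjusted p 1.38e-05). None of the 7 rose and CEBPA was the only one called lower, while 5 of 34 tested genes of the list fell (14.7%), close to the 13.8% of all tested genes. Of 20 anthracycline genes CBR3, a carbonyl reductase of doxorubicin, carried 1 member, which read 2.76 in HL60. Its overlapping peak in HL60/ADR, which was assigned to CBR3-AS1, read 7.09 on a whole step. Both values had a false discovery rate above 0.05. CBR3 was at 0.0177 and 0 FPKM in the HL60 libraries and at 0.0955 and 0 in the HL60/ADR libraries.

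Small nucleolar RNA host genes, whose introns encode snoRNAs and whose spliced transcripts end in noncoding last exons, had members in 8 of 28 genes. Of their 6 pairs none was more than 2-fold higher and 1 was more than 2-fold lower, beside 24.5% and 7.48% of all last-exon pairs. By any amount 5 were higher in HL60/ADR, beside 64.4% of all last-exon pairs, and the median log2 ratio was 0.77. SNHG29 read 14.0 in HL60 and 26.2 in HL60/ADR, SNHG5 read 3.38 and 6.15, SNHG16 read 3.09 and 5.84 and SNHG26 read 4.45 and 5.03. SNHG11 had a pair of each direction, 2.65 to 4.23 in exon 6 of 6 and 3.86 to 1.69 in exon 3 of 3. SNHG29 rose from 19.3 and 19.0 to 96.6 and 98.2 FPKM (log2 fold change 2.29, SE 0.02, limma adjusted p 7.04e-06) and was the only one of the 8 called in expression. Of all 26 tested genes of this list 6 rose (23.1%) and 2 fell (7.69%), beside 8.93% and 13.8% of all tested genes.

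Antisense genes, counted by the listed symbol of the assigned gene, carried members in 171 of 718 genes, with 254 peaks in HL60 and 244 in HL60/ADR. Their median fold enrichments were 5.52 and 7.09, above the 4.67 and 6.21 of all members. Of their 80 pairs 26 were more than 2-fold higher (32.5%) and 5 more than 2-fold lower (6.25%), with a median log2 ratio of 0.43. The shares over all last-exon pairs were 24.5% and 7.48%, and over all pairs 19.0% and 4.81%. Of the 54 tested antisense genes with members 7 rose and 1 fell, beside 8.93% and 13.8% of all tested genes. Of all 148 tested antisense genes 36 rose (24.3%) and 4 fell. Divergent transcripts carried members in 41 of 111 genes, with medians of 6.62 and 7.98, and 4 of their 14 pairs were more than 2-fold higher and 1 lower.

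MicroRNA host genes carried members in 13 of 37 genes, 34 peaks of HL60 and 31 of HL60/ADR. Among their 10 pairs 3 were more than 2-fold higher and 2 lower, too few to set against the 24.5% and 7.48% of all last-exon pairs. MIR646HG alone had 4 of these pairs, which went from 11.0 to 26.6, from 3.31 to 16.0, from 3.68 to 3.05 and from 6.62 to 1.90. Protocadherins, whose clustered genes share constant last exons, carried members in 2 of 52 genes. Genes listed under a clone name were the largest class, with members in 642 genes and 588 and 658 peaks. Some of them have other names in RefSeq, such as GATD1-DT for AP006621. Of their 149 pairs 32 were more than 2-fold higher (21.5%) and 12 lower (8.05%), close to all last-exon pairs (24.5% and 7.48%), with a median log2 ratio of 0.29.

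Zinc finger genes, which encode their whole finger array in a long last exon, carried 151 members in HL60 and 147 in HL60/ADR, in 133 of 528 genes. Their median fold enrichments, 4.05 and 4.88, were below those of all members. Of their 28 pairs 9 were more than 2-fold higher (32.1%) and 1 lower (3.57%), beside 24.5% and 7.48% of last-exon pairs and 19.0% and 4.81% of all pairs, with a median log2 ratio of 0.69. Of the 90 tested genes with members 3 rose (3.33%) and 15 fell (16.7%), beside 8.93% and 13.8% of all tested genes, with a median log2 fold change of -0.44. Of all 342 tested zinc finger genes 7 rose and 62 fell, with a median of -0.43.

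The cell type was checked in the same input libraries. All 5 promyelocyte markers were above 0 in every library, with ELANE lowest at 0.244 to 8.05 FPKM. MPO was at 135 to 137 FPKM in the HL60 libraries and at 244 to 252 in those of HL60/ADR, and CTSG at 5.57 to 7.87 and 795 to 819. The T cell marker CD3D was at 0.469 to 0.617 FPKM in the HL60 libraries and at 54.7 to 55.6 in those of HL60/ADR, while CD3E stayed under 1 FPKM and CD2 was listed at 0 in both HL60/ADR libraries. Of the B cell markers CD79A was at 8.19 to 8.89 and 3.90 to 4.27 FPKM. The part of these differences in the peak comparisons was not tested. The depth behind FPKM values is unknown from the table used here.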

How the data were processed

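MeRIP-seq of 2 IP and 2 input libraries per line was analysed. Per the labels and the study's methods, the authors cleaned reads by fastp, mapped them by HISAT2 to the human genome of Ensembl release 101, called peaks with exomePeak on both replicates together, annotated them with ChIPseeker and computed FPKM with StringTie. The deposited fold enrichment is the ratio of IP over input, the deposited p-value and the log10 p and false discovery scores come from the peak caller, and the deposited FPKM table covers the 4 input libraries. A fold enrichment of 2 or more held for 88.9% of HL60 members and 91.0% of HL60/ADR members, so lower values are also in the lists. The authors' differential columns were not used, and 0 columns of per-sample values were left unused.

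Exon rank and exon gene were read from the annotation, while the assigned gene was the gene listed for the peak. The symbol rule for LINC genes was applied to the assigned gene. Exon genes were named through RefSeq tables (3168 of 3180 had a symbol and 2463 a gene kind). Overlap was computed with bedtools 2.31.1 on peak spans, ignoring strand. Pairs were peaks that overlapped 1 to 1 by exon blocks, and a pair beyond 2-fold was counted. Expression was tested with limma 3.58.1 (trend, two-sided) on log2(FPKM + 1) for 13053 genes with a mean of 0.5 FPKM or more, so fold changes of low genes are understated. A gene was called, and is said to have risen or fallen, where the log2 fold change was beyond 1 and the p adjusted by Benjamini-Hochberg was under 0.05. Nothing in the labels says that the 2 libraries of a line came from separate cultures, so these p-values measure the spread between the libraries. The model was checked on simulated data.

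Named genes were the 10 strongest members per line with 1 FPKM or more, the 10 largest rises and falls of pairs and of expression, the 5 genes with the most members, and members of lists by pathway or symbol. Members, lists and tests were chosen with earlier results of these data known. Shares have 95% Wilson intervals. Sequence motifs of peaks were not analysed here, since no genome was used.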

Additional observations from a re-analysis of the deposited data

How the results depend on the processing

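Peak counts fell under the strict threshold (false discovery rate at most 1e-05 and fold enrichment of 4 or more) to 452 in HL60 and 695 in HL60/ADR, which were 14.1% and 21.1% of members against 22.1% and 34.1% of all peaks. The overlap share of members in HL60 and HL60/ADR was 27.6% and 26.4% when 50% of both peaks had to be shared, against 43.5% and 45.5% of all peaks. It was 65.3% and 58.1% by exon blocks, against 71.3% and 72.9%. On the same strand it was 64.0% and 58.3%, against 70.1% and 72.2%. Among strict peaks it was 69.9% and 44.7%, against 81.5% and 57.9% of all strict peaks. The median log2 ratio of pairs kept its sign under all 9 alternatives. The strict threshold moved it to 0.68 in 144 pairs, with 29.2% more than 2-fold higher and 3.47% lower. Over all 5137 strict pairs the median also moved up, to 0.58, with 22.1% higher and 1.97% lower. Leaving out values on whole steps gave 20.1% and 5.36%, and genes of 1 FPKM or more gave 20.5% higher. Median fold enrichment in HL60 and HL60/ADR was 5.36 and 6.65 at 2 or more, 3.49 and 3.84 off the whole steps, and 3.59 and 4.41 in genes of 1 FPKM or more. Pairs formed by peak spans, by the same assigned gene in both lists, and by an exon of the assigned gene were added after seeing the data and stayed within the intervals of the reported values.

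Of the member genes, 279 were called higher (14.9%) and 362 lower (19.4%) with a pseudocount of 0.1, against 172 and 232. Over all tested genes that pseudocount gave 13.6% and 20.8%. Centring on library medians gave 245 (13.1%) and 146 (7.82%), beside 12.7% and 8.96% over all tested genes. That centring shifted the median of all tested genes from -0.18 to 0.04, ended the calls for expression of ALKBH3 (-0.86) and expression of HPS1 (-0.85), and brought expression of IDI1 (1.03), expression of MIR223HG (1.02) and expression of SNHG5 (1.15) past the size used for a call. Leaving out each input library in turn gave 163 to 176 higher and 233 to 238 lower. Replicate numbers were shared between the lines, but the differences between replicates 1 and 2 correlated at only 0.0433 across lines, so the numbers were not taken as pairs. A replicate block gave 171 higher and 232 lower. Of 96 genes named with a test, 12 changed their call under some alternative, most with a smaller pseudocount, and none that was called changed sign. The uncalled genes ASAP1, ASXL1, CTCF, FPGT, GABPB1-AS1, MIR4435-2HG, SNHG11 and USP48 did change sign. Motif content of the peaks and its 2 alternatives were not run, because no genome was used. With 1 pooled list per line, peak differences have no replicate check.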

Other observations

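MIR29B2, assigned to a peak in exon 5 of 5 of the host gene MIR29B2CHG in HL60 (7.73, on a whole step), had a partner in HL60/ADR that read 3.84 and was assigned to MIR29B2CHG. The hairpin MIR8087 lay within the span of an HL60 peak of 16.6 that was annotated to the last exon of BDNF-AS and assigned to RNA5SP339. HPS1 carried a last-exon peak of 1.37 in HL60/ADR alone, and its expression was 17.9 and 19.0 FPKM in HL60 and 8.20 and 8.47 in HL60/ADR (log2 fold change -1.06, SE 0.04, limma adjusted p 5.50e-05). DUXAP10, a pseudogene transcript, carried 11 and 5 members, and GABPB1-AS1 10 and 6. Peaks in exons of LINC genes that were assigned to a gene of another name stayed among the members, 59 in HL60 and 79 in HL60/ADR.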
